A study of Mus musculus with 13 samples.

Results

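Lipid-associated macrophage genes were followed through mouse aortas given BAPN with fasudil, BAPN, fasudil or vehicle. The set holds 7 genes, Trem2, Gpnmb, Cd9, Cd63, Lgals3, Fabp5 and Apoe, picked by gene symbol from 28510 genes with values. All 7 passed the filter of at least 1 FPKM (fragments scaled to transcript length and to library size) in at least 2 libraries, which kept 13748 genes for testing.

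Macrophages that take up large amounts of lipid, in fat tissue, in atherosclerotic plaque and in other damaged tissue, share a transcriptional programme named after the surface receptor TREM2. TREM2 binds lipids and lipoproteins and signals through the adaptor TYROBP, and the programme's other genes encode lysosomal, lipid-carrying and glycan-binding proteins. Most of these genes are not restricted to macrophages: Cd9, Cd63, Fabp5 and Apoe are also made by smooth muscle, fat, endothelial or nerve-sheath cells, so in whole aorta their level is a sum over cell types.

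The mice that received BAPN with fasudil (3 libraries) had BAPN alone for 1 week and then both agents. The BAPN group (2 libraries used) had β-aminopropionitrile, which blocks the lysyl oxidases and with them the crosslinking of elastin and collagen, at 0.25% in water. The fasudil group (3 libraries) had fasudil in water at 150 mg/kg/day, the combined group had the same amounts of both, and the vehicle group (4 libraries) had water. The experiment ran for 4 weeks in all groups, with 1 week of acclimatisation. The labels present the combined treatment as a model of aortic dissection, a tear in the wall of the aorta. Strain, age and sex are not given in the sources used here, and the labels do not say that each library is 1 animal, so every p-value below measures the spread between libraries.

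The libraries had an estimated depth of 20.35 to 20.9 M reads. Smooth muscle markers summed to between 445 and 9030 scaled FPKM over the 12 libraries, so smooth muscle RNA was present in each, at widely different levels. The share of aortic wall in each library was not tested. A pair of libraries stood apart in immunoglobulin genes or epithelial markers. Sympathetic neuron markers also differed widely between the libraries of each treated group, as given below. In BAPN replicate 1, immunoglobulin genes made up 10.5% of all FPKM, against at most 0.0463% in the other 11 libraries. In vehicle replicate 3, epithelial markers summed to 6838 scaled FPKM, against at most 161 in the other 11 libraries, and the summed pan-macrophage and resident macrophage markers were also highest there. The deposited column of BAPN replicate 2 equals replicate 1 plus 1 FPKM in all 28510 genes and was not used. A BAPN replicate 2 recovered from the authors' BAPN mean was used only where it is named. Values below are FPKM scaled between libraries, log2 fold changes (log2FC, with SE) are on log2 of scaled FPKM plus 1, and a change was called at an adjusted p under 0.05.

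In BAPN with fasudil against vehicle, Trem2 and Gpnmb rose and none of the 7 fell. Thus 2 of 7 were called higher, where 0.662% of all 13748 tested genes were called higher, 1.02% were called lower and 1.68% were called in either direction. The median log2FC of the 7 genes was 1.03, beside 0.06 over all tested genes, and 6 of the 7 had a log2FC above 0. In 4 of the 7 (Trem2, Gpnmb, Cd63 and Apoe) every library of BAPN with fasudil was above every vehicle library, as it was in 13.2% of all genes. Fabp5 had the 1 negative log2FC. The 7 genes were chosen with earlier results of these data known, so these shares and medians describe the set and do not test it.

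**Figure D1:**
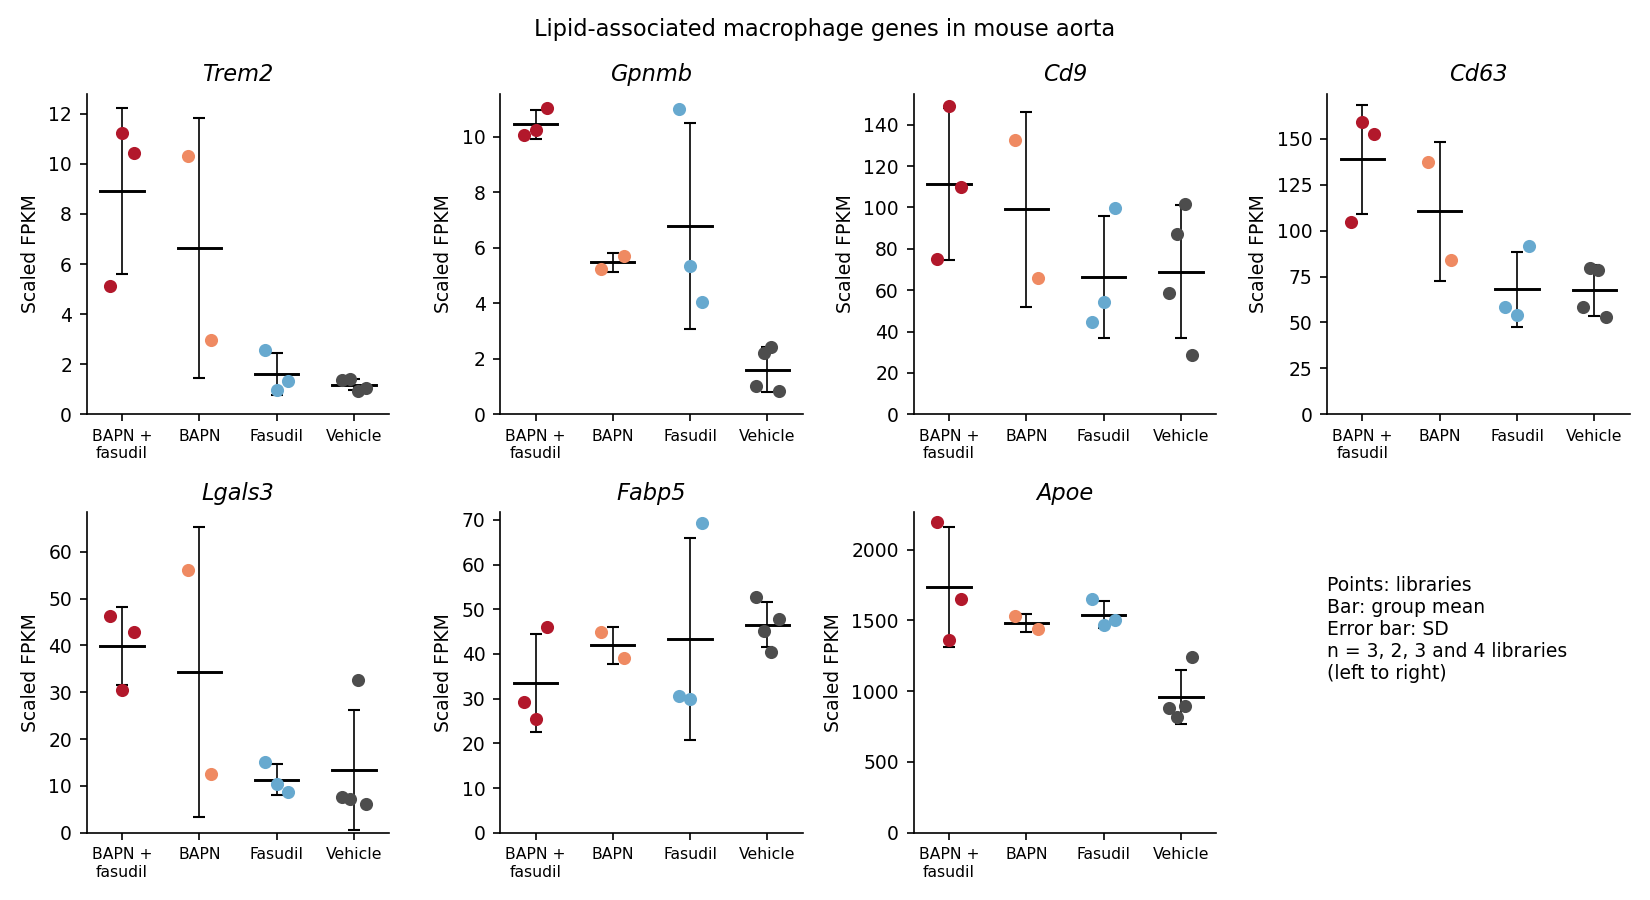
Scaled FPKM of each of the 7 genes in each library (linear axes from 0), with groups in the order BAPN with fasudil, BAPN, fasudil and vehicle, points for libraries, bars for group means and error bars for SD. Trem2 and Gpnmb lie between 5.11 and 11.2 in BAPN with fasudil and between 0.827 and 2.41 in vehicle, while Fabp5 overlaps in all groups.

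Trem2 (ENSMUSG00000023992.15, chromosome 17, 48653429 to 48661175 in the deposited table's GRCm39 coordinates) encodes the lipid-sensing receptor itself. Its values were 5.11, 11.2 and 10.4 scaled FPKM in BAPN with fasudil, 10.3 and 2.97 in BAPN, 2.56, 0.968 and 1.33 in fasudil, and 1.38, 1.39, 0.947 and 1.03 in vehicle. The BAPN-treated libraries were all above the fasudil and vehicle libraries, and the fasudil and vehicle libraries overlapped. Trem2 rose with BAPN and fasudil against vehicle by a log2FC of 2.12 ± 0.36 (95% CI 1.31 to 2.93, limma adjusted p = 0.0388), a 7.51-fold ratio of the group means of 8.92 and 1.19. Against fasudil the log2FC of BAPN with fasudil was 1.90 ± 0.39 with no overlap (adjusted p = 0.133), and against BAPN it was 0.50 ± 0.43 with overlap (adjusted p = 1). BAPN alone against vehicle gave 1.62 ± 0.41 (adjusted p = 0.0949) and fasudil alone gave 0.22 ± 0.36 (adjusted p = 0.900). The BAPN value rested on which library was kept: it was 0.86 (adjusted p = 0.902) without BAPN replicate 1 and 2.37 (adjusted p = 0.00545) without BAPN replicate 3, and 1.62 ± 0.35 (adjusted p = 0.0273) with the recovered replicate 2, at 5.54 scaled FPKM, added. In whole aorta, more cells that carry Trem2 and more Trem2 RNA per cell cannot be told apart.

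The call on Trem2 in BAPN with fasudil against vehicle depended on single libraries. The log2FC stayed between 1.93 and 2.44 with any 1 library left out, and the adjusted p lay between 0.00691 and 0.143, under 0.05 in 3 of 12 such fits. Those 3 lacked fasudil replicate 3, BAPN replicate 1 or BAPN replicate 3. It was under 0.05 in 12 of 14 other settings, and 0.0757 with no filter and 0.274 with the replicate number as a block. Without vehicle replicate 3, the epithelium-rich library, it was 0.0556.

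Gpnmb (ENSMUSG00000029816.11, chromosome 6, 49013480 to 49047863) encodes a transmembrane glycoprotein of lysosomes and the cell surface that foam cells, osteoclasts and melanocytes make. It measured 10.1, 10.2 and 11.0 scaled FPKM in BAPN with fasudil, 5.22 and 5.72 in BAPN, 11.0, 5.34 and 4.03 in fasudil, and 1.01, 2.20, 2.41 and 0.827 in vehicle. All 8 treated libraries were above all 4 vehicle libraries, and the 3 libraries of BAPN with fasudil had a mean of 10.4 with an SD of 0.525. Gpnmb rose with BAPN and fasudil against vehicle by 2.18 ± 0.30 (95% CI 1.51 to 2.85, limma adjusted p = 0.0237), a 6.48-fold ratio of group means. Against BAPN alone the log2FC was 0.82 ± 0.36 with no overlap (unadjusted p = 0.0449, adjusted p = 1), and against fasudil it was 0.66 ± 0.32 with overlap (adjusted p = 0.280). Fasudil alone against vehicle gave 1.53 ± 0.30 (unadjusted p = 0.000448, adjusted p = 0.458) and BAPN alone gave 1.36 ± 0.34 (adjusted p = 0.0948). The order of the means thus placed fasudil (6.79 ± 3.71, SD) above BAPN (5.47 ± 0.35), whose libraries overlapped, whereas for Trem2 fasudil (1.62 ± 0.83) stood beside vehicle (1.19 ± 0.23). Leaving out 1 library kept the Gpnmb log2FC of BAPN with fasudil against vehicle between 2.04 and 2.31, with an adjusted p between 0.00797 and 0.0974. It was under 0.05 in 6 of 12 such fits and in 13 of 14 other settings. The 6 fits above 0.05 lacked vehicle replicate 1, 2 or 4, or any 1 library of BAPN with fasudil, and the setting above 0.05 was the replicate block (0.264).

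Because Trem2 and Gpnmb were the called genes, their promoter windows are shown, from 250 bases before to 50 after the annotated start, from RefSeq (GRCm38.p6), 5′ to 3′ on the plus strand. Capitals mark TGANTCA, a pattern that is the AP-1 consensus when N is C or G and that was searched on both strands. The Gpnmb match, TGACTCA, is that consensus, and the Trem2 match, TGAATCA, is not. The Trem2 window is chr17:48346151-48346450 and the Gpnmb window is chr6:49036268-49036567.
Trem2: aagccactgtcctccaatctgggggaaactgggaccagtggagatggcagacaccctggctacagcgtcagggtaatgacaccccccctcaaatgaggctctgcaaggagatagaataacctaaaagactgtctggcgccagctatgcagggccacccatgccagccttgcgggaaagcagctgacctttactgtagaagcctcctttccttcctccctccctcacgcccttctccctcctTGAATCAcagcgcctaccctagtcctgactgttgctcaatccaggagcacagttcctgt
Gpnmb: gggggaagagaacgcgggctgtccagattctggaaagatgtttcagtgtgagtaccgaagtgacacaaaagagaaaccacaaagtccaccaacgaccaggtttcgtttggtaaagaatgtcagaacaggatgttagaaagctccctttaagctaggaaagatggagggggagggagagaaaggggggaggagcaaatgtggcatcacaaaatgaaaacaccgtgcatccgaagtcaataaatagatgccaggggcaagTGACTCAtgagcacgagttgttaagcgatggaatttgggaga
In Trem2 the pattern began 9 bases before the start, and in Gpnmb 8 bases after it. TGANTCA was in 7.81% of 32851 promoter windows of this length, and in 2 of the 6 genes of the set that have a window in the table (8 windows in all, and none for Fabp5). Of the other motifs searched on both strands, CACGTG was in none of the 8 windows (7.15% of all windows) and the PU.1-type GAGGAAGT in none (3.2%). TCANGTGA, which holds CACGTG when N is C, was in the Lgals3 window alone, 224 bases before the start (4.18%). The Lgals3 match is TCAGGTGA, where N is G, so it does not hold CACGTG. These motifs were chosen with the values known, and a match describes letters and not binding.

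Cd63 and Cd9 encode tetraspanins, a family of membrane proteins, CD63 of lysosomes and exosomes and CD9 mostly of the plasma membrane. Cd63 (ENSMUSG00000025351.15, chromosome 10, 128736858 to 128748691) measured 105, 159 and 152 scaled FPKM in BAPN with fasudil, 137 and 83.9 in BAPN, 58.6, 54.2 and 91.5 in fasudil, and 58.4, 79.8, 78.6 and 53.1 in vehicle. Every library of BAPN with fasudil was above every fasudil and vehicle library. Its log2FC was 1.03 ± 0.26 against vehicle (adjusted p = 0.0571) and 1.03 ± 0.28 against fasudil (adjusted p = 0.157), so it missed the threshold in both. Against vehicle it passed in 2 of 12 fits with 1 library left out (without BAPN replicate 1 and without BAPN replicate 3) and in 5 of 14 other settings, with adjusted p between 0.001004 and 0.297 over the 14. Cd9 (ENSMUSG00000030342.9, chromosome 6, 125437229 to 125471754) measured 75.2, 149 and 110 in BAPN with fasudil, 132 and 65.7 in BAPN, 44.5, 54.3 and 100 in fasudil, and 58.6, 87.0, 102 and 28.7 in vehicle. The 4 groups overlapped, and its log2FC of 0.77 ± 0.46 against vehicle (adjusted p = 0.314) passed in 0 of 12 and 0 of 14 fits.

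Lgals3 (ENSMUSG00000050335.18, chromosome 14, 47605208 to 47623617) encodes galectin-3, a secreted lectin that binds β-galactosides and damaged lysosomes. Its values were 46.2, 30.5 and 42.7 scaled FPKM in BAPN with fasudil, 56.2 and 12.5 in BAPN, 15.01, 10.3 and 8.67 in fasudil, and 7.62, 7.12, 32.6 and 6.08 in vehicle. The 32.6 belongs to vehicle replicate 3, the library rich in epithelial markers, and it alone made vehicle overlap with BAPN with fasudil. The part of the epithelial RNA in that value was not tested. The log2FC of BAPN with fasudil against vehicle was 1.82 ± 0.59 (adjusted p = 0.0894), and without vehicle replicate 3 it was 2.31 (adjusted p = 0.0556). Against fasudil the groups did not overlap and the log2FC was 1.74 ± 0.63 (adjusted p = 0.199). BAPN alone against vehicle gave 1.29 ± 0.66 (adjusted p = 0.307), and 0.25 (adjusted p = 1) without BAPN replicate 1 or 2.33 (adjusted p = 0.0606) without replicate 3, with 56.2 in BAPN replicate 1, the immunoglobulin-rich library, and 12.5 in replicate 3, and 25.7 in the recovered replicate 2.

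Apoe (ENSMUSG00000002985.17, chromosome 7, 19430034 to 19433113) encodes apolipoprotein E, which carries cholesterol out of lipid-loaded cells, and it was the most abundant of the 7 in FPKM, which is per length. Apoe measured 2194, 1361 and 1650 scaled FPKM in BAPN with fasudil, 1528 and 1437 in BAPN, 1648, 1471 and 1505 in fasudil, and 881, 818, 897 and 1242 in vehicle. All 8 treated libraries were above all 4 vehicle libraries, and the 3 treated groups overlapped with each other. The log2FC against vehicle was 0.85 ± 0.21 for BAPN with fasudil (adjusted p = 0.0554), 0.65 ± 0.24 for BAPN (adjusted p = 0.164) and 0.70 ± 0.21 for fasudil (unadjusted p = 0.00671, adjusted p = 0.529), and none passed. BAPN with fasudil differed from fasudil by 0.14 ± 0.22 (95% CI -0.35 to 0.64) and from BAPN by 0.20 ± 0.25 (95% CI -0.35 to 0.75). In BAPN with fasudil against vehicle, Apoe passed in 2 of 12 fits with 1 library left out (without BAPN replicate 1 and without BAPN replicate 3) and in 7 of 14 other settings.

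Fabp5 (ENSMUSG00000027533.11, chromosome 3, 10077608 to 10081667) encodes a fatty acid-binding protein of epidermis, macrophages and endothelium that carries fatty acids within the cell. It measured 29.2, 25.4 and 46.1 scaled FPKM in BAPN with fasudil, 44.9 and 39.0 in BAPN, 30.6, 29.95 and 69.3 in fasudil, and 52.9, 45.2, 40.6 and 47.8 in vehicle. The groups overlapped in every comparison. The log2FC of BAPN with fasudil against vehicle was -0.50 ± 0.29 (95% CI -1.15 to 0.15, adjusted p = 0.303) and passed in 0 of 12 and 0 of 14 fits. Fabp5 therefore had the lowest mean in the group where the other 6 genes had their highest.

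**Figure D2:**
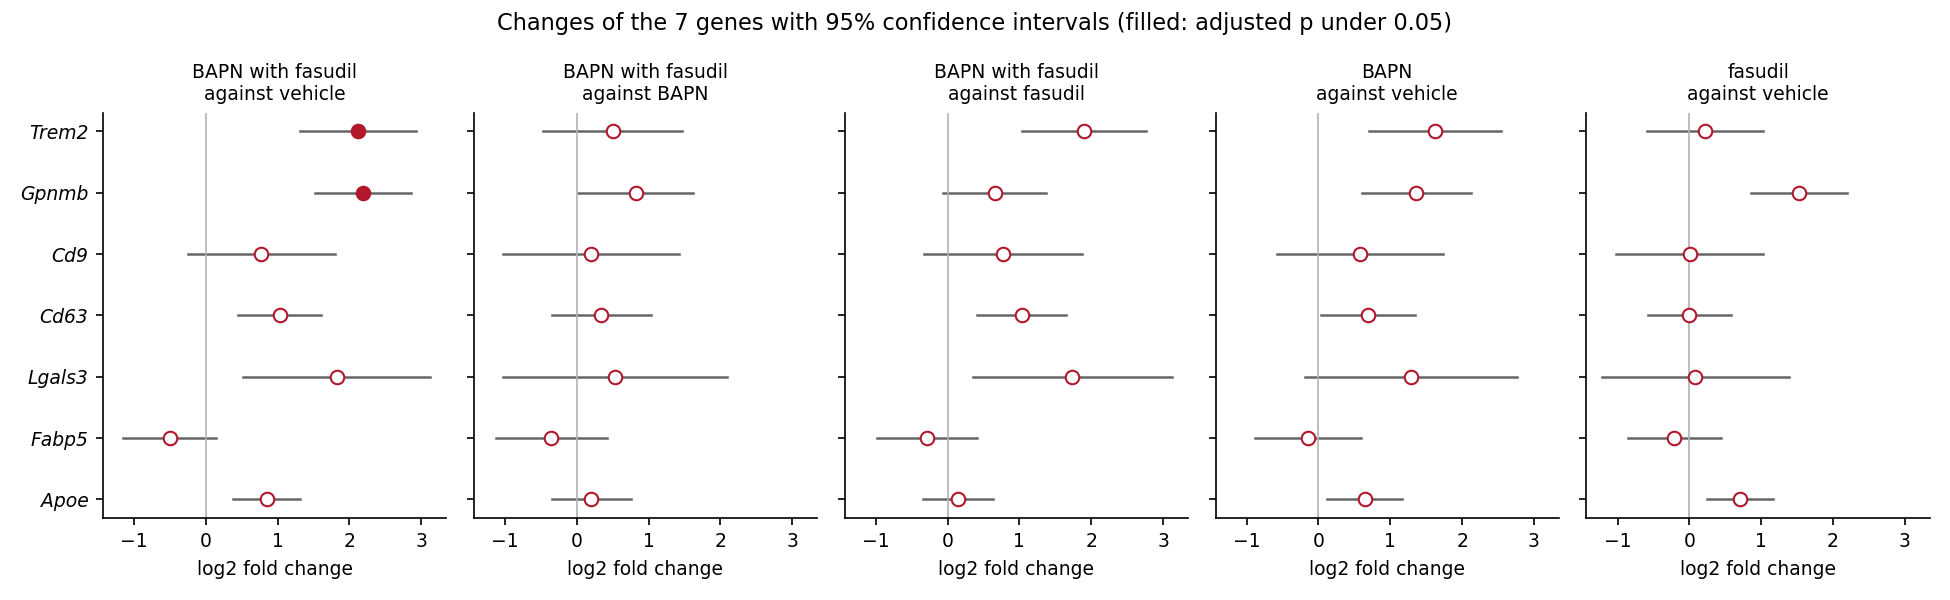
Log2 fold change with 95% CI of each of the 7 genes in 5 pairwise comparisons, filled where the adjusted p was under 0.05. The filled points are Trem2 (2.12) and Gpnmb (2.18) in BAPN with fasudil against vehicle, and the Fabp5 estimates lie below 0.

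The comparisons share libraries, so the values of the 7 genes are given side by side and not as independent counts. Against vehicle, the median log2FC of the set was 1.03 for BAPN with fasudil, 0.69 for BAPN and 0.09 for fasudil, where the medians over all genes were 0.06, 0.02 and -0.02. For BAPN with fasudil the median of the set was 0.77 against fasudil and 0.34 against BAPN, where all genes had 0.03 and 0.04. In BAPN against vehicle 0 of 7 were called (0% of all genes), 4 of 7 (Trem2, Gpnmb, Cd63 and Apoe) were higher without overlap (13.2% of all genes) and 4 of 7 had an unadjusted p under 0.05 (20.6%). In fasudil against vehicle 0 of 7 were called (0%), Gpnmb and Apoe were higher without overlap (4.87%), and the same 2 had an unadjusted p under 0.05 (7.99%). In BAPN with fasudil against fasudil 0 of 7 were called (0.0218%), Trem2, Cd63 and Lgals3 were higher without overlap (10.7%), and those 3 had an unadjusted p under 0.05 (19.7%). In BAPN with fasudil against BAPN 0 of 7 were called (0.00727%), Gpnmb was higher without overlap (8.57%) and it alone had an unadjusted p under 0.05 (3.36%). The interaction, the fasudil effect with BAPN minus that without it, was called for 0 of 7 (0.00727%), with adjusted p from 0.839 to 0.975 and 0 of 7 under 0.05 unadjusted (5.27%). The different placing of fasudil for Gpnmb and Apoe on one side and Trem2, Cd63 and Lgals3 on the other is a description of the values, since no test compared genes.

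In each BAPN-treated group, where Trem2 was high, all 12 pan-macrophage markers had a log2FC above 0 against vehicle. This held by group and not library by library. Each of the 7 genes was therefore set against a macrophage level. That level was the summed scaled FPKM of Adgre1, Csf1r, Fcgr1, Mertk, Itgam and Cx3cr1, 6 genes that macrophages express widely. It was 55.6, 26.1 and 40.3 in BAPN with fasudil, 52.5 and 31.3 in BAPN, 19.5, 14.5 and 16.6 in fasudil, and 16.6, 19.6, 14.8 and 11.6 in vehicle. The BAPN-treated libraries were all above the rest. The ratio of Trem2 to this level was 0.0920, 0.429 and 0.259 in BAPN with fasudil, and 0.0831, 0.0711, 0.0639 and 0.0893 in vehicle. The groups did not overlap, with a log2 difference of 1.51 (exact two-sided permutation test, p = 0.0286, the smallest that 3 against 4 libraries can give, unadjusted). The lowest library of BAPN with fasudil exceeded the highest vehicle library only slightly, and with Adgre1 alone as the macrophage level the difference was 1.28 (exact p = 0.171). Besides the 6 genes, only Csf1r alone and Adgre1 alone were tried as the level. Ratios to other macrophage genes were not tested.

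In BAPN the Trem2 ratios were 0.196 and 0.0950, above every vehicle library (log2 difference 0.84, exact permutation p = 0.0667, the smallest that 2 against 4 libraries can give). In fasudil the Trem2 ratios were 0.131, 0.0668 and 0.0800, which overlapped with vehicle (log2 difference 0.22, exact permutation p = 0.543). The Trem2 ratios of BAPN with fasudil overlapped with those of fasudil (log2 difference 1.29, exact permutation p = 0.2) and of BAPN (0.67, exact permutation p = 0.5). The ratio of Gpnmb was 0.181, 0.391 and 0.274 in BAPN with fasudil, 0.564, 0.368 and 0.243 in fasudil, and 0.0609, 0.113, 0.162 and 0.0714 in vehicle. For fasudil against vehicle the log2 difference was 1.97 without overlap (exact permutation p = 0.0286), and for BAPN with fasudil against vehicle it was 1.51, as for Trem2, without overlap (exact permutation p = 0.0571). No test compared the genes. The ratios of the tetraspanins, Lgals3 and Apoe overlapped between BAPN with fasudil and vehicle, with log2 differences of -0.55 for Cd9, -0.30 for Cd63, 0.61 for Lgals3 and -0.49 for Apoe (exact permutation p from 0.171 to 0.600). With 1 library left out these differences ranged from -1.07 to -0.04 for Cd9 (without replicates 2 and 1 of BAPN with fasudil), -0.70 to 0.15 for Cd63, 0.32 to 1.18 for Lgals3 (highest without vehicle replicate 3) and -0.68 to -0.23 for Apoe. Fabp5 had lower ratios, 0.526, 0.972 and 1.14 in BAPN with fasudil, against 3.18, 2.31, 2.74 and 4.12 in vehicle, a log2 difference of -1.85 without overlap (exact permutation p = 0.0286). Fabp5 itself overlapped between these groups, with a log2FC of -0.50 ± 0.29, and the macrophage level did not overlap. Both a higher macrophage level and a lower Fabp5 value lower this ratio, and their shares in the difference were not tested. Other cell types also make Fabp5, Cd9, Cd63 and Apoe, and osteoclasts and melanocytes make Gpnmb, so these ratios are not levels per macrophage. The Lgals3 ratio was 2.20 in the epithelium-rich vehicle replicate 3, and the part of other cell types in it was not tested. Ratios were compared in 35 ways, for 7 genes in 5 pairs of groups, and these p-values are unadjusted.

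**Figure D3:**
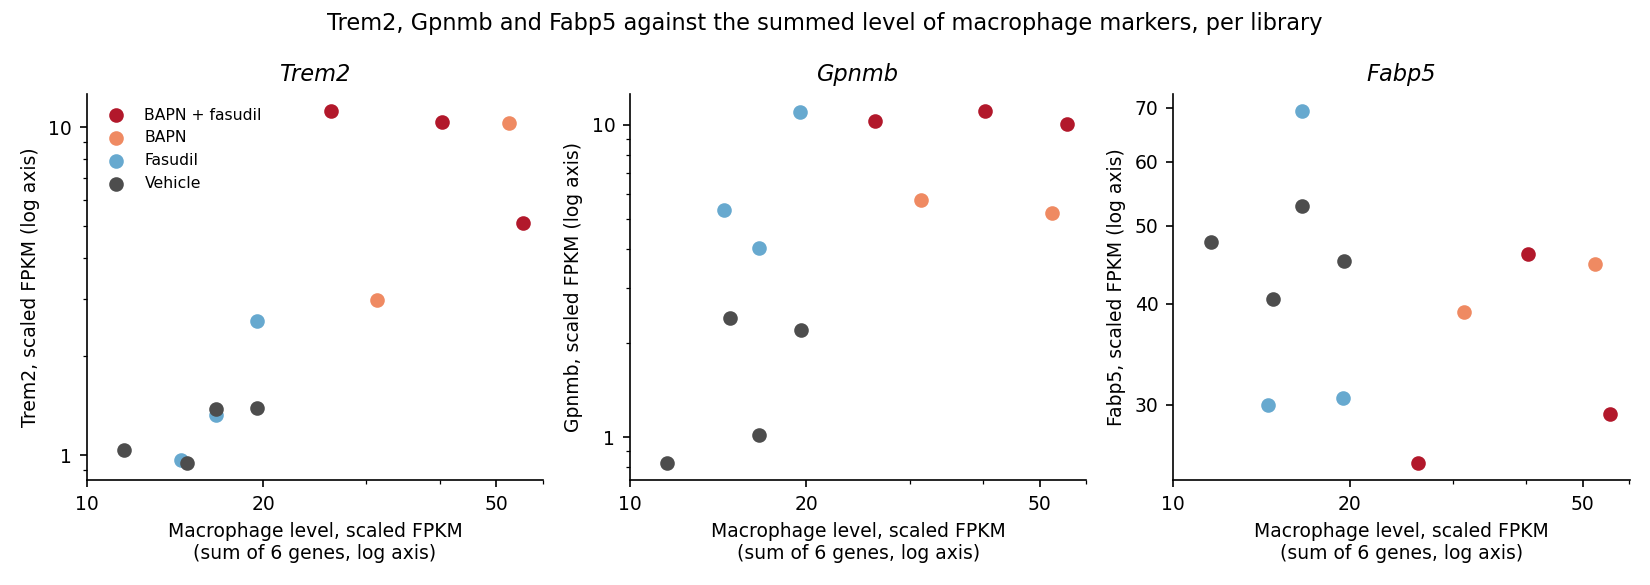
Scaled FPKM of Trem2, Gpnmb and Fabp5 against the summed scaled FPKM of 6 macrophage genes in each library (both axes log), coloured by group. Trem2 is lowest of its group (5.11) in the library of BAPN with fasudil whose macrophage level is highest (55.6).

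Tyrobp, the adaptor through which TREM2 signals, measured 79.9, 31.0 and 49.3 scaled FPKM in BAPN with fasudil, where Trem2 measured 5.11, 11.2 and 10.4 in the same libraries. It measured 64.4 and 20.7 in BAPN, 19.1, 11.8 and 15.3 in fasudil, and 9.90, 14.3, 9.31 and 13.3 in vehicle. The order of the libraries was opposite for the 2 genes in BAPN with fasudil and the same in BAPN and in fasudil, and in vehicle replicate 2 was highest and replicate 3 lowest for both. Against vehicle, Tyrobp rose in BAPN with fasudil by 2.01 ± 0.39 (adjusted p = 0.0434). It was the 1 called gene of 8 TREM2 partners and signalling genes, whose log2FC were all above 0 with a median of 0.63. Inpp5d, which encodes the phosphatase SHIP1 that dampens this signal, had 0.90 ± 0.25 (adjusted p = 0.0653). Of the 6 genes of the Trem family, Trem2 was the only one past the filter, and the other 5 were under 1 scaled FPKM in all 12 libraries.

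Of 26 further genes of the lipid-associated macrophage programme, 24 were tested, 0 rose and 1 fell in BAPN with fasudil against vehicle, and their median log2FC was 0.40. The gene that fell was Syngr1, which encodes a vesicle protein, at 7.31, 5.98 and 6.37 scaled FPKM in BAPN with fasudil and 12.8, 13.1, 11.1 and 15.2 in vehicle, by 0.89 ± 0.14 on the log2 scale (adjusted p = 0.0306). The rest, named here after their values were seen, went both ways without a call. Cd68, a lysosomal macrophage glycoprotein, had a log2FC of 1.82 ± 0.41 (adjusted p = 0.0506), and Capg, an actin-capping protein, had 1.07 ± 0.25 (adjusted p = 0.0512). Spp1, which encodes the secreted protein osteopontin, measured 3.68, 19.5 and 633 scaled FPKM in BAPN with fasudil and 0.408, 0.685, 1.79 and 0.194 in vehicle (log2FC 4.55 ± 1.41, adjusted p = 0.0825), so 1 library carried most of its sum. Lpl, the lipoprotein lipase that fat cells also make, had -1.27 ± 0.42 (adjusted p = 0.0934), and Plin2, which coats lipid droplets, had -1.39 ± 0.57 (adjusted p = 0.157).

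The gene families and pathways around the 7 genes held no further call in this comparison. Of 13 tested genes of cholesterol efflux and LXR signalling 0 were called (median 0.15), with Soat1, which esterifies cholesterol, at 0.71 ± 0.19 (adjusted p = 0.0643) and Apoc1, a small apolipoprotein encoded beside Apoe, at -1.31 ± 0.40 (adjusted p = 0.0807). Of 8 receptors that bind APOE 0 were called (median 0.33), and Lrp1, a large endocytic receptor, lay at 0.90 ± 0.19 with an adjusted p of 0.05002. Vldlr, the very low-density lipoprotein receptor, had -0.95 ± 0.27 (adjusted p = 0.0717). Of 4 tested fatty acid-binding protein genes 0 were called (median -0.75). Among them the heart and fat forms Fabp3 and Fabp4 had -2.18 ± 0.60 (adjusted p = 0.0665) and -1.001 ± 0.35 (adjusted p = 0.105). Of 13 tetraspanins 0 were called (median 0.22), with the leukocyte tetraspanin Cd37 at 1.18 ± 0.33 (adjusted p = 0.0699). Of 8 tested galectin-list genes 0 were called (median -0.25), and of 3 tested GPNMB partner genes 0 (median 0.58). Of 3 tested MiT/TFE transcription factors, which drive lysosomal genes, 0 were called, with Mitf at 0.54 ± 0.15 (adjusted p = 0.0685). None of these lists, nor any marker list below, held a called gene in the other 5 comparisons.

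**Figure D4:**
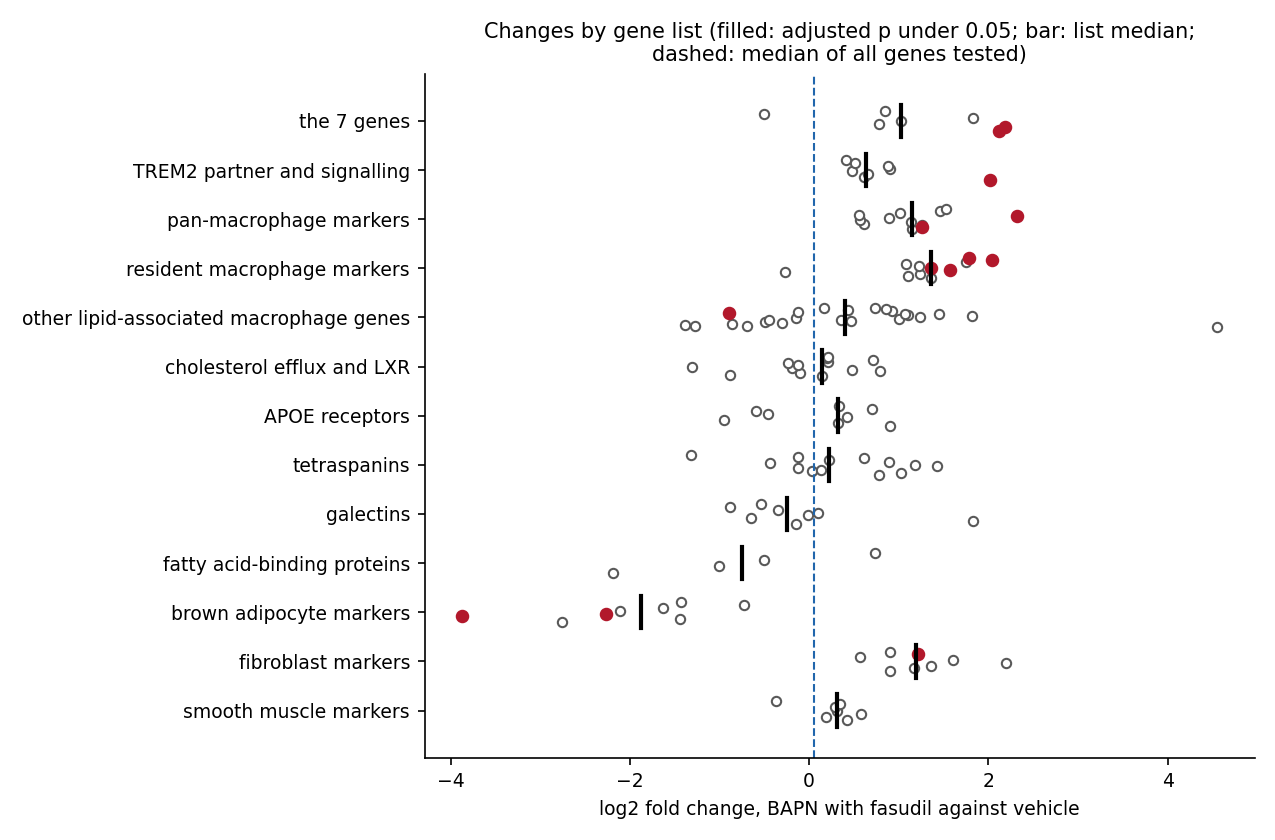
Log2FC of every tested gene of the 7-gene set and of 12 other gene lists (TREM2 partners, macrophage genes, related families and cell type markers) between BAPN with fasudil and vehicle, 1 point for each gene, filled where the adjusted p was under 0.05, with a bar at the median of each list and a dashed line at the median of all tested genes. The set's median is 1.03 and that of all tested genes is 0.06.

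Markers of several cell types moved with the group in which Trem2 and Gpnmb rose. Of 12 pan-macrophage markers 2 rose, Csf1r by 1.26 ± 0.27 (adjusted p = 0.0485) and Fcer1g by 2.32 ± 0.46 (adjusted p = 0.0438), and the median was 1.14. Of 11 tested resident macrophage markers 4 rose, F13a1, Mrc1, C1qb and C1qc, and the median was 1.36. The summed levels overlapped, since vehicle replicate 3 gave the highest sums: resident markers summed to 711 to 1137 scaled FPKM in BAPN with fasudil and 268 to 2298 in vehicle, and pan-macrophage markers to 244 to 569 and 95.4 to 586. In that library Cbr2, which airway epithelium also makes, was at 2123 and Lyz2 at 535, while the 6 genes of the macrophage level summed to 14.8. Osteoclasts and melanocytes also make Gpnmb. All 6 melanocyte markers were under 1 scaled FPKM in all 12 libraries. Of 3 tested osteoclast markers the 1 called, Acp5, fell by 1.47 ± 0.27 on the log2 scale (adjusted p = 0.0431). The median of these 3 was -0.11, and 1 of the 3 had a log2FC above 0, so they went both ways. Schwann cell markers, a further source of Apoe and Cd9, had a median of 0.11, with 0 of 7 higher and 1 lower. Fibroblast markers had a median of 1.19 (1 of 8 higher), smooth muscle markers 0.32 (0 of 7 called) and endothelial markers 0.21 (0 of 7). Brown adipocyte markers had a median of -1.87 with 2 of 8 lower, and they summed to 1913 to 2483 scaled FPKM in BAPN with fasudil and 6656 to 11331 in vehicle. White and general adipocyte markers had -0.52, with 0 of 8 lower and the leptin gene Lep higher by 1.96 ± 0.40 (adjusted p = 0.0440). Red cell markers had 1.84 (1 of 5 higher). Sympathetic neuron markers had 2.18 (0 of 6 called, all 6 above 0), with sums of 1.78 to 693 in BAPN with fasudil and 1.18 to 26.2 in vehicle. Their sums were 2.38 to 792 in BAPN and 0.947 to 1045 in fasudil. Mitochondrial genes took 31.3 to 40.5% of FPKM in BAPN with fasudil and 43.6 to 53.3% in vehicle. The part of these cell types and of the mitochondrial share in the values of the 7 genes was not tested.

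How closely the 7 genes followed each other was described by Pearson's r of log2 values over the 12 libraries after subtracting group means. The closest pair was Cd9 and Cd63, with r = 0.902 within groups and 0.865 over the 12 libraries without subtraction. Trem2 and Cd63 had 0.568 within groups and 0.885 over all, and Trem2 and Gpnmb had 0.237 and 0.694. Apoe and Cd9 had -0.706 within groups. The tested genes most like Trem2 within groups were Def6 (0.978), C3ar1, the complement C3a receptor gene (0.969), and Cthrc1, a secreted matrix-associated protein gene (0.968). Over all 12 libraries these 3 had r of 0.713, 0.954 and 0.930 with Trem2. The BAPN libraries lay far apart for Trem2, at 10.3 in replicate 1 and 2.97 in replicate 3. That pair, which holds the immunoglobulin-rich replicate 1, therefore weighs much in the r of Trem2 within groups. The closest to Gpnmb were Eno3 (0.967), Bub3 (0.938) and Tmod4 (0.926), and the lists of 3 for Trem2 and Gpnmb shared no gene. The points of each r share their libraries, depth and scaling, and the 3 were picked as the highest of 13748 genes.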

How the data were processed

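RNA-seq values of 12 mouse aorta libraries came from 1 deposited table. Its title says counts, but per the file headers the values are FPKM made by the authors, to 2 decimals. Per the submitters' processing notes the tools were Bowtie2, RSEM and DESeq2 and the builds GRCm39 and mm10. The labels name both DNBSEQ and an Illumina platform for the sequencing, in the same words for every sample. Which step used which build, which instrument ran, and the strand setting are not given in the sources used here. Gene positions are the authors' deposited ones and are printed as GRCm39, since 2.53% of 28343 genes start at the same base as in a GRCm38 annotation. The deposited transcript length, which is neither a signal nor a score, and the authors' group mean FPKM served only for checks and for depth. Depth was estimated from the steps between low FPKM values of short transcripts (300 to 900 bases, less 49). 1 sample column (BAPN replicate 2) was not used. It equals replicate 1 plus 1 FPKM (tolerance 0.006), and the authors' BAPN mean differs from the mean of the columns in 28495 genes.

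FPKM were scaled by a trimmed mean of log ratios (30% of ratios, 5% of mean levels trimmed at each end) over the genes past the filter. limma 3.58.1 (R 4.3.3) tested log2 of scaled FPKM plus 1 with a trend and robust prior variance, with 4 groups in 1 fit, and Benjamini-Hochberg adjustment ran over 13748 genes in each of 6 comparisons. The fit was tested on simulated data. The pseudocount reduces log2 fold changes of low genes such as Trem2. Exact permutation tests used SciPy 1.17.1. The written plan held that 3 against 4 libraries cannot reach 0.05, but the smallest possible p is 0.0286.

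No replicate block was used in the main fit, since the labels name no batch, litter or day. A check made after the fits compared how same-numbered libraries deviated from their group means (15 pairs, r from -0.487 to 0.213, 3 over 0.1). The 7 genes, the lists and the motifs were chosen with earlier results of these data known. Beyond the 7 genes, up to 4 called genes of a list are named, or up to 2 with the smallest p where none was called. Inpp5d and the uncalled genes of the lipid-associated list are named outside this rule. Alternatives changed the pseudocount, filter, scaling, fit or libraries.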

Additional observations from a re-analysis of the deposited data

Results flagged for a closer look

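Lgals3 in vehicle had 1 library far from the others. Vehicle replicate 3 had 32.6 scaled FPKM, and the other vehicle libraries had 7.62, 7.12 and 6.08. The gap to the nearest library was 0.942 of the group's range, above Dixon's 95% critical value of 0.829 for 4 samples. The vehicle group of each of the 7 genes was looked at, and chance flags about 1 group in 20. The same library had 6838 scaled FPKM of epithelial markers, against 7.78 to 161 in the 3 libraries of BAPN with fasudil and the other vehicle libraries, and the part of that in the Lgals3 value was not tested.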

How the results depend on the processing

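In BAPN with fasudil against vehicle 2 of the 7 genes were called. The count was 1 with no filter, 0 with the replicate number as a block, 4 with only the groups compared or with the recovered BAPN replicate 2 added, and 5 with no scaling, with library quality weights or with the recovered replicate in place of BAPN replicate 1. It was 0 to 5 with 1 library left out, 5 without either BAPN library and 0 without any of vehicle replicates 1, 2 and 4 or the 3 libraries of BAPN with fasudil. Over all genes the 231 calls ranged from 0 (replicate block) to 5200 (quality weights), and from 1 to 1695 with 1 library left out. No scaling moved the all-gene median to 0.35 and gave 1452 higher and 228 lower, against 91 and 140. In BAPN with fasudil against fasudil the count was 4 with quality weights and 1 with the recovered replicate in place of BAPN replicate 1, in BAPN against vehicle it was 2 with that replicate added and 0 to 1 with 1 library left out, and in fasudil against vehicle it was 1 with quality weights, each against 0. The calls on Trem2 and Gpnmb kept their direction in every setting run. The ratio of Trem2 to Adgre1 alone gave 1.28. With 1 library left out the ratio differences ranged from 1.02 to 2.13 for Trem2, -0.70 to 0.15 for Cd63 and -2.08 to -1.52 for Fabp5. Those fits have 2 against 4 or 3 against 3 libraries, where the smallest p is 0.0667 or 0.1. With 1 library left out, calls numbered 0 to 3 of the TREM2 partners (1 in the report), 0 to 7 of the other lipid-associated genes (1), 0 to 3 of the pan-macrophage markers (2) and 0 to 6 of the resident macrophage markers (4). Over the 14 other settings they numbered 0 to 6, 0 to 19, 0 to 10 and 0 to 10 of these lists in the same order, lowest with no filter and the replicate block and highest with quality weights. The weights fit stopped before its convergence tolerance was reached.

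Only uncalled values changed sign, with the cause not tested. Against BAPN, BAPN with fasudil gave -0.0182 for Cd9 and -0.0181 for Apoe with scaling that ignored mitochondrial, haemoglobin and immunoglobulin genes, and 0.0036 for Fabp5 with quality weights. Against fasudil, it gave 0.34 for Fabp5 with quality weights. BAPN against vehicle gave 0.36 for Fabp5 with no scaling and 0.27 with that restricted scaling. Fasudil against vehicle gave -0.36 and -0.28 for Cd9 (block, weights), -0.14 for Lgals3 (block) and 0.0121 for Fabp5 (no scaling). For Cd63 it gave 0.22 (no scaling), 0.17 (restricted scaling), 0.0036 (factors from all genes) and 0.0032 (recovered replicate in place of BAPN replicate 1). With 1 library left out, BAPN with fasudil against BAPN spanned -0.25 to 1.25 for Trem2, -0.30 to 0.70 for Cd9, -0.0108 to 0.70 for Cd63 and -0.51 to 1.57 for Lgals3. Against fasudil it spanned -0.0385 to 0.31 for Apoe and -0.53 to 0.10 for Fabp5. Fasudil against vehicle spanned -0.0391 to 0.40 for Trem2, -0.34 to 0.22 for Cd9, -0.23 to 0.14 for Cd63 and -0.14 to 0.60 for Lgals3. A fit that left 1 BAPN library assumed that it varies like the other groups, and the 2 recovered-replicate settings and the all-gene factors were chosen after seeing the data.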
